A study of Mus musculus with 4 samples.

Results

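Penk, Pdyn, Tac1, Tac2, Crh, Adcyap1, Vgf, Scg2 and Nts encode the precursors of neuropeptides whose transcripts are known to respond to neuronal activity, and these 9 genes were chosen by symbol from the 22609 listed in each library. Their transcripts were measured by RNA-Seq in whole hippocampus from 2 FLOX+GCI and 2 FBN-ARO-KO+GCI libraries. GCI stands for global cerebral ischemia: both common carotid arteries were occluded for 20 min, and the tissue was taken after 24 h of reperfusion. All mice were age-matched females that had been ovariectomized 1 week before surgery, so ovarian estrogen was removed in both groups, and no sham library was analysed here. In FBN-ARO-KO mice, Cre driven by the CaMKIIα promoter deletes floxed Cyp19a1, the gene for aromatase, in excitatory neurons of the forebrain only, and FLOX mice are their controls. The labels do not say whether the libraries of a group came from separate mice, so the p-values below measure the spread between these libraries, which may be in part technical.

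Neuropeptides are made as long precursors that enter dense-core vesicles, where proprotein convertases cut them at pairs of basic residues and carboxypeptidases trim the ends. They are released by sustained firing and act on G protein-coupled receptors. In the hippocampus, dynorphin is known as a peptide of the mossy fibers of dentate granule cells, enkephalin of the lateral perforant path and of interneurons, PACAP of hilar mossy cells, and the tachykinins and CRH of interneurons. VGF and secretogranin 2 are granin-like cargo proteins of dense-core vesicles that are themselves cut into peptides.

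The opioid precursors are shown first, because Penk and Pdyn carry the same opioid core but gave different values below. In the longest coding transcript of each gene in GENCODE M1 (mouse build mm9), proenkephalin held 7 copies of the core, 6 ending in Met and 1 in Leu, and prodynorphin held 3, each ending in Leu. A pair of basic codons stood on both sides of 5 copies in Penk and of all 3 copies in Pdyn. All copies lie in a single exon (exon 2 of Penk and exon 4 of Pdyn), on the minus strand. The capitals mark the 5 codons of the opioid core, and the lower case marks the 2 codons on each side.
Penk copy 1, chr4:4061475-4061501: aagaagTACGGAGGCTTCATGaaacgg
Penk copy 2, chr4:4061454-4061480: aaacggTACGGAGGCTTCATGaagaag
Penk copy 3, chr4:4061367-4061393: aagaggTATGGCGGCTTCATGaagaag
Penk copy 4, chr4:4061214-4061240: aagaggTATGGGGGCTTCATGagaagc
Penk copy 5, chr4:4061142-4061168: aagcgcTACGGGGGCTTCATGagaagg
Penk copy 6, chr4:4061082-4061108: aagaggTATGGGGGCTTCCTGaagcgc
Penk copy 7, chr4:4060989-4061015: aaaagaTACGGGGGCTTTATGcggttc
Pdyn copy 1, chr2:129513968-129513994: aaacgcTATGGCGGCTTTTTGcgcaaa
Pdyn copy 2, chr2:129513860-129513886: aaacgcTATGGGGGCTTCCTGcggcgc
Pdyn copy 3, chr2:129513803-129513829: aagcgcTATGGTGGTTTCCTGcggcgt

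The tachykinin precursors encode a like end of the peptide, the part known to activate the receptors, followed by a Gly codon used for amidation and a basic pair. The residue after the opening Phe of that end is Phe in substance P and Val in neurokinin A and neurokinin B, and the codons differ between the copies at most positions. Tac1 held 2 copies, of substance P in exon 3 and neurokinin A in exon 6, and Tac2 held 1, of neurokinin B in exon 5. The capitals mark that end, in mm9 on the plus strand.
Tac1 copy 1, chr6:7506744-7506773: cagcagTTCTTTGGATTAATGggcaagcgg
Tac1 copy 2, chr6:7509110-7509139: gattccTTTGTTGGACTAATGggcaaaaga
Tac2 copy 1, chr10:127166181-127166210: gacttcTTTGTGGGACTTATGggcaagagg

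Vgf had the smallest p of the 9 genes, and its coding sequence was also the longest together with that of Scg2, at 1854 bases each. The stretch below, from exon 2 on the plus strand of mm9, encodes the VGF peptide named TLQP-21. The capitals mark all of its codons. Over the whole transcript, Vgf was the most GC-rich of the 9 genes at 64.8%, against 39.0% for Nts and 50.6% for the median tested gene.
Vgf, chr5:137508521-137508583: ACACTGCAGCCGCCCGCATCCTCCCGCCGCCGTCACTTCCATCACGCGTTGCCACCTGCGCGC

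CREB, a transcription factor activated by calcium and cAMP, binds the cAMP response element TGACGTCA or its TGACG part, and Fos and Jun bind TGANTCA. The 250 bases upstream of each start site were searched on both strands in the RefSeq table (GRCm38.p6), which held 8 windows for Scg2, Pdyn, Tac1, Tac2, Nts and Adcyap1 (6 of the 9 genes), and none for Penk, Crh and Vgf. The whole element was in 1 window, of Scg2, and in 1.55% of all 32851 windows. The TGACG part, which the whole element contains, was in 5 windows, of Scg2, Tac1, Nts and both of Adcyap1, and in 17.8% of all windows. The windows of Adcyap1 overlap, and the same TGACG site is counted in both. TGANTCA was in 1 window, of Nts, and in 6.75% of all. The matches shown, in capitals, begin 68, 91, 43 and 207 bases before the start site of Scg2, Adcyap1, Tac1 and Nts, in the order below. The Tac1 match is TGACG on the strand opposite to the gene, so its capitals read CGTCA. A second TGACG match in Tac1 begins 197 bases before its start site, and the TGACG match of Nts begins 166 bases before; these are not shown. They are matches of letters and were not measured as binding sites.
Scg2, chr1:79440071-79440110, minus strand: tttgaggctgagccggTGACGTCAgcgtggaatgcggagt
Adcyap1, chr17:93198910-93198946, plus strand: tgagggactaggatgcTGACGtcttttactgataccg
Tac1, chr6:7555002-7555038, plus strand: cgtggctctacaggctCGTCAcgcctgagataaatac
Nts, chr10:102490603-102490641, minus strand: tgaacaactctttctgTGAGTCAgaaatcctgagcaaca

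Reads counted on genes totaled between 24333396 and 24774433 in FLOX+GCI and between 30114003 and 33076795 in FBN-ARO-KO+GCI, so that 3 counts in a library corresponded to between 0.0907 and 0.123 CPM, the count scaled to library size. The targeted gene, Cyp19a1, was at 4 and 1 counts in the FLOX+GCI libraries against 2 and 2 in the FBN-ARO-KO+GCI libraries, which cannot check the genotype. Markers of hippocampal neurons were abundant, with a summed level of the 5 listed genes between 9905 and 10472 CPM. The 6 hypothalamic markers summed to between 0.392 and 0.649 CPM, and the 4 habenular markers measured summed to between 1.38 and 1.78 CPM. Most of that was Gpr151, at 32 and 23 counts against 37 and 25. Chrnb4 was at 3 and 6 counts against 13 and 13, while Pou4f1 had 0, 0, 0 and 1 counts. Across 14020 tested genes, the log2 fold change between genotypes fell with GC content of the transcript (Spearman's rho was -0.55, taken across genes, so its points are not replicates), and the FBN-ARO-KO+GCI libraries also differed from each other along GC content (rho of -0.48 for replicate 2 minus replicate 1). The differences of the members and of most other named genes are therefore also given from a fit with offsets for GC content and transcript length, called the GC-corrected fit below.

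All 9 genes passed the filter on low counts, so every member was tested. Per kilobase of the longest coding transcript, the mean level over the 4 libraries was highest for Scg2, at 127 CPM per kb, followed by Vgf at 47.5 and Penk at 19.2. Tac1 at 8.87, Nts at 7.58 and Tac2 at 6.18 CPM per kb followed, and Adcyap1 at 3.65, Pdyn at 2.50 and Crh at 1.05 were lowest. In this order, the libraries of Tac1 and Nts overlapped, as did those of Nts and Tac2. The libraries of the other neighbors did not, with the narrowest gap between the lowest Adcyap1 library at 3.04 and the highest Pdyn library at 2.90 CPM per kb.

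**Figure D1:**
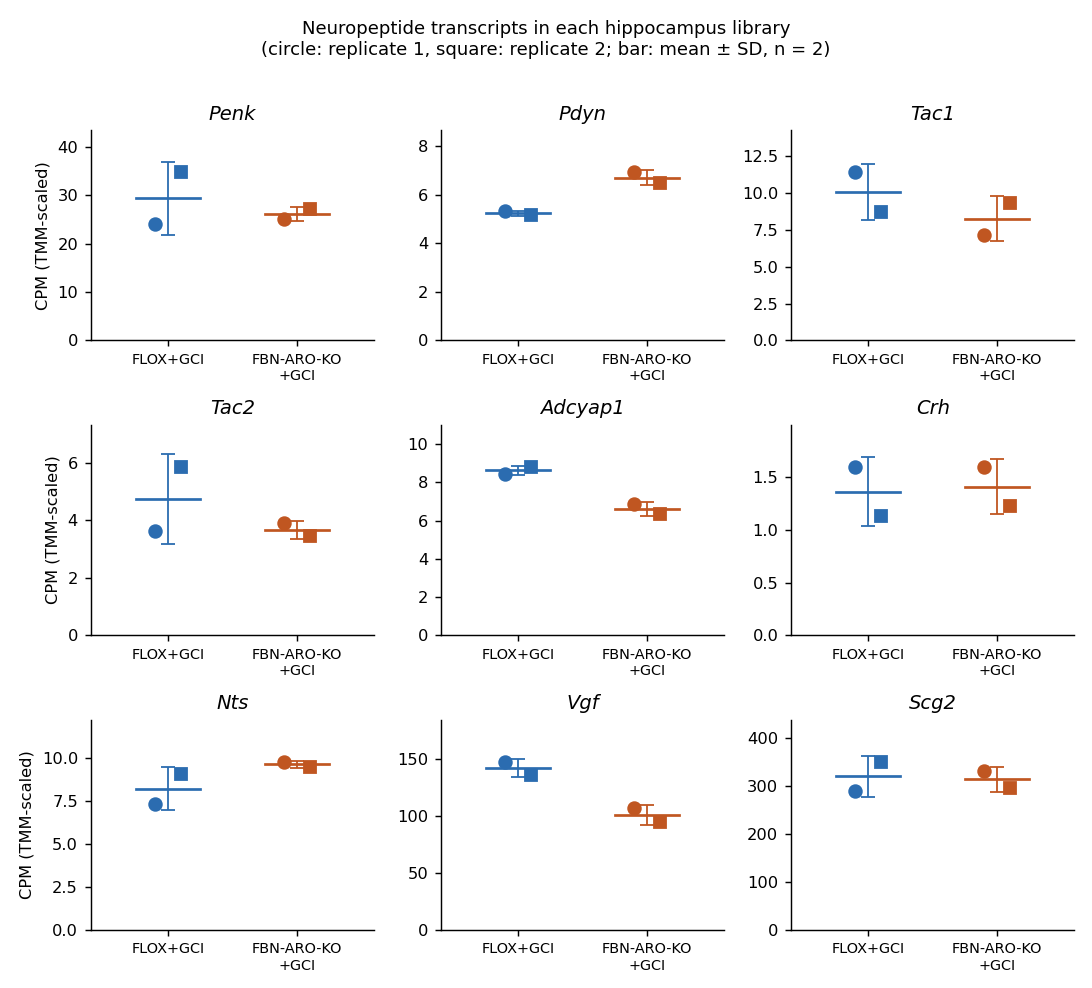
CPM scaled by TMM (y axis, from 0) of each of the 9 transcripts in the FLOX+GCI (blue) and FBN-ARO-KO+GCI (orange) libraries, with circles for replicate 1, squares for replicate 2, and the mean ± SD (n = 2). The groups are apart for Pdyn, Adcyap1, Nts and Vgf, and FLOX+GCI replicate 2 is the highest library for Penk and Tac2.

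No member passed an adjusted p of 0.05 with edgeR's quasi-likelihood test (0 of 9, against 0.0138% of the 14527 genes tested). At an unadjusted p under 0.05 there were 2 members, Vgf and Adcyap1, both lower in FBN-ARO-KO+GCI, where 7.82% of all tested genes were called lower. In the other direction 0 members were called, against 8.72% of all tested genes. Both libraries of 1 group lay above both of the other for 4 of the 9 members, against 51.8% of all tested genes, a share near the background. The median log2 fold change of the 9 members was -0.16, beside -0.01 over all tested genes, with 6 members lower and 3 higher. DESeq2 called 1 member, Vgf, and its independent filtering left an adjusted p for Vgf and Scg2 alone. In whole tissue, fewer cells of a type and less RNA per cell cannot be told apart.

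Among the granin-like precursors, Vgf was lower and Scg2 was nearly level. Vgf had 147.5 and 136 CPM in FLOX+GCI and 107 and 94.5 CPM in FBN-ARO-KO+GCI (142 ± 8.06 and 101 ± 8.72, SD, n = 2 each). Both FLOX+GCI libraries were above both FBN-ARO-KO+GCI libraries, 1.41-fold on average. On the log2 scale the difference in Vgf was -0.49 (standard error 0.09, 95% interval -0.70 to -0.29, unadjusted p = 0.000705), which ranked 38 among the 14527 genes. Its adjusted p was 0.238 in edgeR, 0.00134 in DESeq2, and over all alternatives it ranged from 0.00134 to 0.815. It was also under 0.05 without FLOX+GCI replicate 2 (0.0306), where the single FLOX+GCI library left is assumed to vary like the FBN-ARO-KO+GCI libraries. In the GC-corrected fit the difference was -0.16 (standard error 0.06, 95% interval -0.30 to -0.03, unadjusted p = 0.0223, adjusted p = 0.382). Vgf was lower in all 12 alternatives.

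Scg2, the precursor of secretoneurin, had 290.0 and 350.1 CPM in FLOX+GCI and 332 and 294 CPM in FBN-ARO-KO+GCI. The libraries of the groups overlapped fully. The log2 difference of Scg2 was -0.03 (standard error 0.11, 95% interval -0.28 to 0.22). Without FLOX+GCI replicate 2 the value was 0.11, and without FBN-ARO-KO+GCI replicate 2 it was 0.05.

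The ratio of these cargo transcripts within a library does not depend on how libraries are scaled. Vgf made up 33.7% and 28.0% of the counts on Vgf and Scg2 in FLOX+GCI (95% Wilson intervals 32.8 to 34.6 and 27.2 to 28.8). In FBN-ARO-KO+GCI it made up 24.4% and 24.3% (23.7 to 25.1 and 23.5 to 25.1). The shares were higher in both FLOX+GCI libraries, but these differed from each other by more than FLOX+GCI replicate 2 did from the FBN-ARO-KO+GCI libraries. With 2 libraries against 2, a two-sided exact permutation test cannot go below p = 0.333, which is the value it gave here. The intervals cover counting error only, and the GC content of the genes in this pair is far apart (64.8% and 46.6%).

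The opioid precursors went in opposite directions, although the intervals of both included 0. Pdyn had 5.31 and 5.15 CPM in FLOX+GCI and 6.91 and 6.49 CPM in FBN-ARO-KO+GCI, from between 127 and 229 counts. Both FBN-ARO-KO+GCI libraries were above both FLOX+GCI libraries, 1.28-fold on average. Pdyn differed by 0.36 on the log2 scale (standard error 0.16, 95% interval -0.03 to 0.74, unadjusted p = 0.0643, adjusted p = 0.324 in edgeR). In the GC-corrected fit it was 0.42 (95% interval 0.06 to 0.78, unadjusted p = 0.0294, adjusted p = 0.395), and it stayed between 0.31 and 0.42 over the 12 alternatives. Of the 6 dentate granule cell markers, 5 were higher in FBN-ARO-KO+GCI, among them 3 called higher at an unadjusted p under 0.05, while 1 was called lower. Over all tested genes, 8.72% were called higher and 7.82% lower. In the GC-corrected fit 4 of the markers were called higher and 0 lower, where 7.88% and 3.47% of all tested genes were. The marker called lower before, C1ql2, had a log2 difference of -0.45, and -0.12 in the GC-corrected fit. The summed level of the 6 markers was between 297 and 324 CPM in FLOX+GCI and between 339 and 351 CPM in FBN-ARO-KO+GCI. Their part in the Pdyn values was not tested.

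Penk had 24.0 and 34.7 CPM in FLOX+GCI and 25.2 and 27.2 CPM in FBN-ARO-KO+GCI. FLOX+GCI replicate 2 was the highest library, and FLOX+GCI replicate 1 was the lowest, 1.45-fold apart. Penk differed by -0.16 on the log2 scale (standard error 0.17, 95% interval -0.56 to 0.23, adjusted p = 0.637 in edgeR). It was 0.12 without FLOX+GCI replicate 2 and -0.40 without FLOX+GCI replicate 1, so its direction rested on which FLOX+GCI library was kept. A long noncoding RNA, A830012C17Rik, overlaps Penk on the opposite strand in mm9, and whether reads were counted by strand is not stated.

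Pdyn made up 18.1% and 12.9% of the counts on Pdyn and Penk in FLOX+GCI (95% Wilson intervals 15.5 to 21.1 and 10.97 to 15.2). In FBN-ARO-KO+GCI it made up 21.5% and 19.2% (19.2 to 24.1 and 16.9 to 21.8). Both FBN-ARO-KO+GCI shares were above both FLOX+GCI shares, but the interval of FLOX+GCI replicate 1 overlapped those of both FBN-ARO-KO+GCI libraries, and the exact permutation test again gave its smallest value, p = 0.333. The GC content of the genes in this pair is close, 51.9% for Pdyn and 52.7% for Penk.

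**Figure D2:**
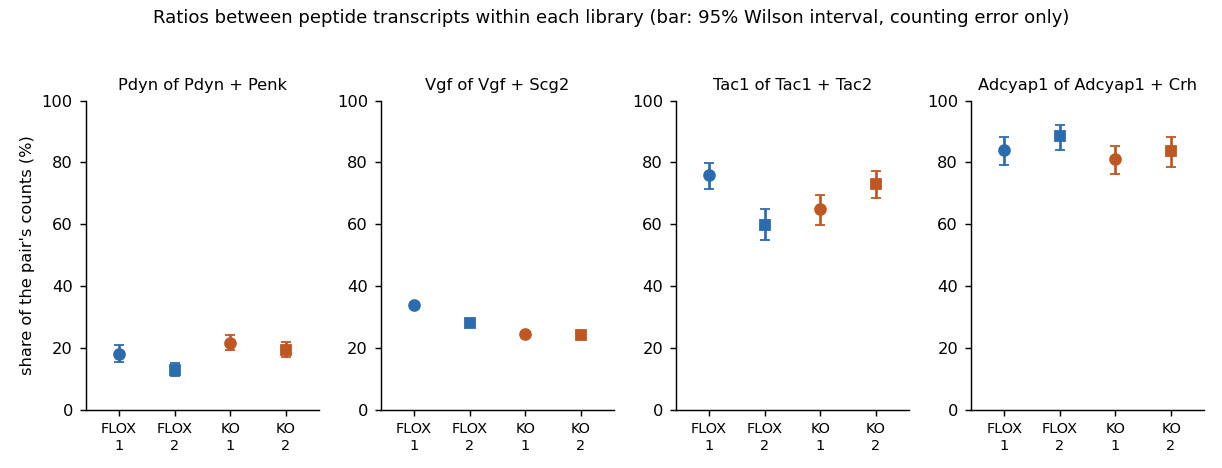
Share of the first gene in the counts of each pair (y axis, percent, from 0 to 100) in each FLOX+GCI (blue, FLOX) and FBN-ARO-KO+GCI (orange, KO) library, with 95% Wilson intervals for counting error. The Vgf share is highest in FLOX+GCI replicate 1 at 33.7%, the Pdyn share is lowest in FLOX+GCI replicate 2 at 12.9%, and the Tac1 shares of the groups overlap.

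Adcyap1, which encodes PACAP, a ligand of the receptor Adcyap1r1, was the other member past an unadjusted p of 0.05. It had 8.46 and 8.80 CPM in FLOX+GCI and 6.88 and 6.35 CPM in FBN-ARO-KO+GCI, from between 186 and 228 counts. Both FLOX+GCI libraries were above both FBN-ARO-KO+GCI libraries, 1.30-fold on average, and within each group the libraries were close. Adcyap1 differed by -0.38 on the log2 scale (standard error 0.15, 95% interval -0.74 to -0.03, unadjusted p = 0.0374, adjusted p = 0.278 in edgeR). The GC-corrected value was -0.45 (unadjusted p = 0.0194, adjusted p = 0.378). The GC content of Adcyap1 was 44.4%. The difference stayed between -0.45 and -0.33 over 12 alternatives, with an unadjusted p under 0.05 in 7 of them. The 5 mossy cell markers summed to between 53.9 and 56.5 CPM in FLOX+GCI and between 53.5 and 55.2 CPM in FBN-ARO-KO+GCI. Most of that sum was Calb2, at 49.9 and 45.4 CPM against 47.2 and 47.4 CPM, so it says little about the others. At an unadjusted p under 0.05, 0 of the 5 were called in either direction, where 7.82% of all tested genes were lower and 8.72% higher. One of the markers, Drd2, is also a striatal marker.

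Crh, for corticotropin-releasing hormone, was the scarcest member, at 40 and 28 counts in the FLOX+GCI libraries against 53 and 36 in the FBN-ARO-KO+GCI libraries. These are 1.596 and 1.14 CPM against 1.599 and 1.23 CPM, so the groups overlapped almost fully. Its log2 difference was 0.05 (standard error 0.33), and differences within its interval, from -0.71 to 0.82, were not detectable at this depth. Adcyap1 made up 84.1% and 88.6% of the counts on Adcyap1 and Crh in FLOX+GCI against 81.1% and 83.8% in FBN-ARO-KO+GCI, with overlapping Wilson intervals. Both FLOX+GCI shares were above both FBN-ARO-KO+GCI shares, and the exact permutation test again gave its smallest value, p = 0.333.

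Both tachykinin precursors had lower means in FBN-ARO-KO+GCI, with libraries that overlapped. Tac1 had 11.4 and 8.72 CPM in FLOX+GCI and 7.18 and 9.35 CPM in FBN-ARO-KO+GCI. Tac1 differed by -0.29 on the log2 scale (standard error 0.20, 95% interval -0.75 to 0.18, adjusted p = 0.472 in edgeR), -0.47 without FLOX+GCI replicate 2 and -0.08 without FLOX+GCI replicate 1. Tac2 had 3.63 and 5.84 CPM in FLOX+GCI and 3.89 and 3.45 CPM in FBN-ARO-KO+GCI. FLOX+GCI replicate 2 alone was high, 1.61-fold above replicate 1. Tac2 differed by -0.37 on the log2 scale (standard error 0.26, 95% interval -0.98 to 0.25, adjusted p = 0.485 in edgeR), and 0.014 without FLOX+GCI replicate 2. Tac1 made up 75.9% and 59.9% of the counts on both genes in FLOX+GCI against 64.9% and 73.1% in FBN-ARO-KO+GCI, where the exact permutation test gave p = 1.

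Nts, the precursor of neurotensin, had 7.34 and 9.09 CPM in FLOX+GCI and 9.77 and 9.46 CPM in FBN-ARO-KO+GCI. The groups did not overlap, but FLOX+GCI replicate 2 was nearer to the FBN-ARO-KO+GCI libraries than to replicate 1. Nts differed by 0.23 on the log2 scale (standard error 0.16, 95% interval -0.15 to 0.60, adjusted p = 0.479 in edgeR), and 0.08 both in the GC-corrected fit and without FLOX+GCI replicate 1.

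**Figure D3:**
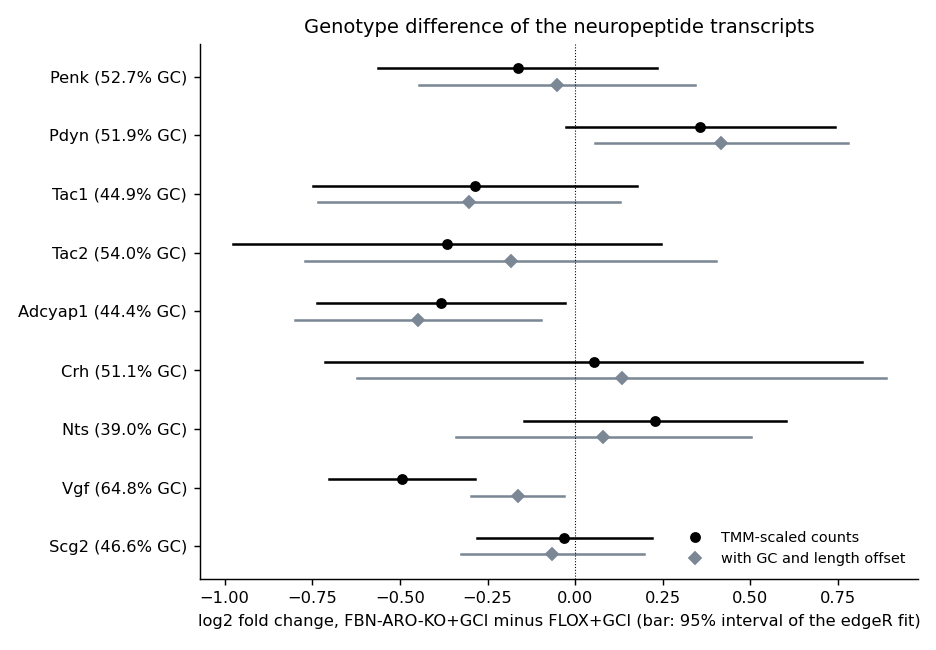
Log2 fold change (x axis, FBN-ARO-KO+GCI minus FLOX+GCI) of the 9 members with 95% intervals, from TMM-scaled counts (black circles) and from the fit with an offset for GC content and length (gray diamonds), with the GC content of each transcript beside its name. Vgf moves from -0.49 to -0.16 with the offset, while Adcyap1 and Pdyn lie farther from 0 with it.

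With the GC-corrected fit, 3 members had an unadjusted p under 0.05: Vgf and Adcyap1 among the genes called lower, which were 3.47% of all tested genes, and Pdyn among those called higher, which were 7.88%. The GC-corrected values of the members not yet given were -0.05 for Penk, -0.30 for Tac1, -0.18 for Tac2, 0.13 for Crh and -0.07 for Scg2. The median of the 9 members was then -0.07, beside 0.03 over all tested genes.

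The peptide genes of striatal projection neurons include Penk, Pdyn and Tac1, so markers of that neighboring tissue were measured too. Of the 5 striatal markers given here, 4 were lower and 1 higher, with a median log2 fold change of -0.24, and -0.26 in the GC-corrected fit. The groups did not overlap for 3, Drd1a, Adora2a and Rgs9, each lower, where 51.8% of all tested genes did not. At an unadjusted p under 0.05, 0 were called higher and 1 lower, against 8.72% and 7.82% of all tested genes. That was the dopamine receptor gene Drd1a, with 6.66 and 9.21 CPM in FLOX+GCI against 4.46 and 5.63 CPM in FBN-ARO-KO+GCI (log2 difference -0.65, and -0.73 in the GC-corrected fit). The 5 genes summed to between 82.2 and 86.4 CPM in FLOX+GCI and between 76.4 and 81.2 CPM in FBN-ARO-KO+GCI. Most of the sum was Ppp1r1b, at 54.7 and 54.3 CPM against 58.6 and 52.1 CPM. Its log2 difference was 0.02, and 0.30 in the GC-corrected fit (unadjusted p = 0.0023, adjusted p = 0.331 in edgeR). In that fit 1 striatal marker, Ppp1r1b, was called higher and 1, Drd1a, lower, where 7.88% and 3.47% of all tested genes were. Drd2 was at -0.04, and at 0.08 in the GC-corrected fit. The part of striatal tissue in the Penk, Pdyn and Tac1 values was not tested. The 6 GABAergic neuron markers, of the class that includes enkephalin, tachykinin and CRH cells, summed to between 745 and 788 CPM in FLOX+GCI and between 741 and 770.4 CPM in FBN-ARO-KO+GCI. Most of that sum was Gad1 and Gad2. Of the 6 genes, 1 was called lower at an unadjusted p under 0.05, where 7.82% of all tested genes were. It was Slc32a1, the vesicular GABA transporter gene (83.1 and 73.6 CPM against 64.1 and 60.1 CPM), with a log2 difference of -0.34, and -0.06 in the GC-corrected fit.

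Of the 16 genes listed as receptors of these peptides or as relatives of such receptors, 15 were tested and 0 passed an adjusted p of 0.05 with edgeR. At an unadjusted p under 0.05, 1 was higher and 1 lower, where 8.72% and 7.82% of all tested genes were. Tacr1, the receptor of substance P, had 4.59 and 4.18 CPM in FLOX+GCI and 2.02 and 2.22 CPM in FBN-ARO-KO+GCI, from 115 and 103 counts against 67 and 65. The FBN-ARO-KO+GCI libraries were close to each other and below both FLOX+GCI libraries. Tacr1 differed by -1.05 on the log2 scale (standard error 0.21, unadjusted p = 0.00157, adjusted p = 0.238 in edgeR), and -1.07 in the GC-corrected fit. It lay between -1.12 and -0.98 over the 12 alternatives. Sort1, for sortilin, which binds neurotensin and the precursors of neurotrophins, had 929 and 928 CPM against 1014 and 1091 CPM, a log2 fold change of 0.18 (adjusted p = 0.273 in edgeR). Adcyap1r1, the PACAP receptor, had 265 and 240.2 CPM in FLOX+GCI and 260.4 and 290.4 CPM in FBN-ARO-KO+GCI, with groups that overlapped and a log2 difference of 0.12, or 0.14 in the GC-corrected fit. Ntsr2, a neurotensin receptor, had a log2 fold change of -0.15 that turned to 0.11 in the GC-corrected fit.

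All 23 genes of peptide processing, storage, binding and breakdown were tested, and 0 passed an adjusted p of 0.05 with edgeR. At an unadjusted p under 0.05, 1 was higher and 4 were lower, where 8.72% and 7.82% of all tested genes were. The median log2 fold change over the list was 0.00. Pcsk1n encodes proSAAS, an inhibitor of the convertase PC1/3. It had 153 and 122 CPM in FLOX+GCI and 85.6 and 69.1 CPM in FBN-ARO-KO+GCI, with no overlap of the groups. The log2 fold change of Pcsk1n was -0.83 (standard error 0.14, unadjusted p = 0.000453, adjusted p = 0.238 in edgeR and 2.66e-06 in DESeq2), and -0.64 in the GC-corrected fit. Crhbp, the secreted binding protein of CRH, had 46.8 and 44.5 CPM against 36.8 and 35.6 CPM. The log2 fold change of Crhbp was -0.33 (standard error 0.09, unadjusted p = 0.00564, adjusted p = 0.238 in edgeR), and -0.30 in the GC-corrected fit, beside the nearly level values of Crh itself.

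Chga, for the granin chromogranin A, and Ptprn, for a membrane protein of dense-core vesicles, had log2 fold changes of -0.34 and -0.35. DESeq2 called Chga (adjusted p = 0.0414) and Ptprn (adjusted p = 0.0220), and in the GC-corrected fit the values were -0.12 and -0.14. Cadps2, a priming factor for dense-core vesicle release, had 132 and 128 CPM in FLOX+GCI and 148 and 165 CPM in FBN-ARO-KO+GCI, which is a log2 difference of 0.27 (adjusted p = 0.244 in edgeR). The most abundant processing genes, Cpe, for the carboxypeptidase that trims the peptides, and Chgb, for chromogranin B, had log2 fold changes of 0.07 and 0.03, or 0.11 and 0.13 in the GC-corrected fit, and the groups overlapped for both.

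Of 20 other neuropeptide genes, 16 were tested and 0 passed an adjusted p of 0.05 with edgeR. At an unadjusted p under 0.05, 6 were lower and 0 higher, where 7.82% and 8.72% of all tested genes were, with a median of -0.26 over the list. In the GC-corrected fit 3 were called lower, where 3.47% of all tested genes were, and the median was -0.15. Npy, for neuropeptide Y, had 60.3 and 70.9 CPM in FLOX+GCI and 53.5 and 39.5 CPM in FBN-ARO-KO+GCI. The log2 fold change of Npy was -0.50 (standard error 0.15, adjusted p = 0.245 in edgeR and 0.0346 in DESeq2). The GC-corrected value of Npy was -0.31 (adjusted p = 0.416), and with 1 library left out it lay between -0.73 and -0.29, the latter without FBN-ARO-KO+GCI replicate 2. Sst, for somatostatin, had 233 and 212 CPM against 185 and 157 CPM, a log2 fold change of -0.38 (adjusted p = 0.0191 in DESeq2) that was -0.12 in the GC-corrected fit. Its relative Cort, for cortistatin, had 6.90 and 4.91 CPM against 3.77 and 2.66 CPM, a log2 fold change of -0.87, and -0.59 in the GC-corrected fit. Cck, for cholecystokinin, had a log2 fold change of -0.19 that turned to 0.06 in the GC-corrected fit. Pomc, which encodes beta-endorphin, was at 54 and 16 counts in the FLOX+GCI libraries against 15 and 7 in the FBN-ARO-KO+GCI libraries. FLOX+GCI replicate 1 was well above the other 3 libraries. Its log2 difference was -1.99 (standard error 0.64, adjusted p = 0.248 in edgeR), or -1.72 in the GC-corrected fit, and over 11 alternatives it lay between -2.61 and -0.88, the latter without FLOX+GCI replicate 1.

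**Figure D4:**
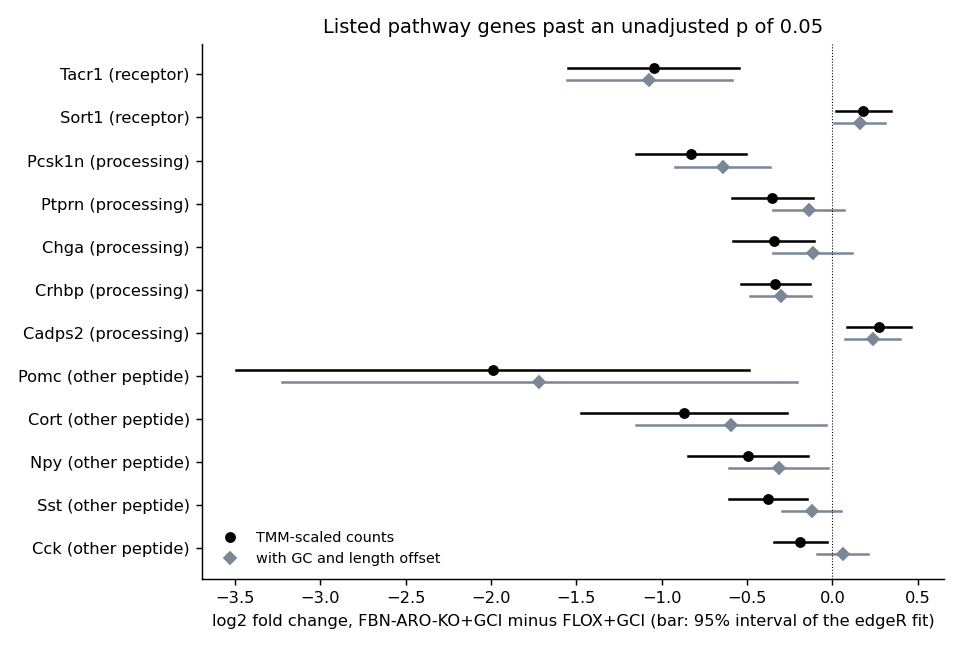
Log2 fold change (x axis, FBN-ARO-KO+GCI minus FLOX+GCI) with 95% intervals of the receptor, processing and other neuropeptide genes that had an unadjusted p under 0.05 and groups that did not overlap, from TMM-scaled counts (black circles) and the fit with an offset for GC content and length (gray diamonds). Tacr1 stays near -1.05 in both fits, Pcsk1n is at -0.83 and -0.64, and Cck crosses 0.

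Of 12 genes that report recent neuronal activity or carry it to the nucleus, 3 were lower and 1 was higher at an unadjusted p under 0.05. Over all tested genes, 7.82% were lower and 8.72% higher at that p. Of the 12, 0 passed an adjusted p of 0.05 in edgeR. Those lower were the transcription factor genes Junb (log2 difference -0.76, and -0.44 in the GC-corrected fit), Fos (-0.71 and -0.64) and Npas4 (-1.02 and -0.86). Npas4 had 17.8 and 10.6 CPM in FLOX+GCI and 6.88 and 7.10 CPM in FBN-ARO-KO+GCI. The gene called higher, named after its values were seen, was Creb1 (0.37, and 0.13 in the GC-corrected fit). Of the 12 genes, 8 were lower and 4 higher. The groups overlapped for others known to respond to activity, among them Egr1, Arc and Bdnf (log2 differences of -0.02, -0.28 and -0.04). They did not overlap for Fosb and Crem, both higher in FBN-ARO-KO+GCI (0.20 and 0.18, or 0.34 and 0.07 in the GC-corrected fit). In that fit the unadjusted p was 0.0366 for Fosb (adjusted p = 0.411) and 0.0975 for Creb1.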

How the data were processed

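Total RNA of hippocampi was sequenced as 50 nt single-end reads, which per the submitters' processing notes were aligned to mm9 with TopHat2 2.0.8b and counted per gene with HTSeq. The authors deposited raw read counts per gene symbol, without normalization. The strand setting and annotation release are not given in the sources used here. The 5 HTSeq counters of reads given to no gene were left out; reads in no feature were between 12.3% and 13.7% of uniquely aligned reads.

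The main test was the quasi-likelihood F-test in edgeR 4.0.16 (R 4.3.3), after TMM scaling and filterByExpr (minimum count 10), adjusting p over all tested genes (Benjamini-Hochberg). The standard error is the log2 fold change over the square root of F. The study used DESeq, and DESeq2 1.42.0 is an alternative here. The GC-corrected fit adds offsets from natural splines (5 degrees of freedom) over GC content and length, known for 96.5% of tested genes from GENCODE M1. The procedure was tested on simulated counts that held no trend with GC content or length, so that test could not judge the GC correction. Libraries of the same group differed by more than counting error (chi-square per degree of freedom 10.8 in FLOX+GCI and 12.8 in FBN-ARO-KO+GCI). That value cannot tell separate mice from separate preparations of a shared pool. The members and gene lists were chosen with earlier results of these data known. From the receptor, processing and other neuropeptide lists, the text names up to 6 genes each with an unadjusted p under 0.05 and no overlap of the groups. Up to 2 abundant others are named from the receptor and processing lists, but not from the other neuropeptides. One striatal marker is not reported here.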

Additional observations from a re-analysis of the deposited data

How the results depend on the processing

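The groups share replicate numbers, which nothing in the labels ties to a shared litter or day, and same-numbered libraries deviated together only weakly (correlation 0.13 across genes). With the replicate block, 184 genes and 1 member, Vgf (adjusted p = 0.0160), passed an adjusted p of 0.05 in edgeR, among them Tacr1, Pcsk1n and Pomc. With the GC-corrected fit and the block 1 gene did, which is not a member. DESeq2 called 292 genes and 1 member, with 1 member at an unadjusted p under 0.05, and every gene with at least 1 count gave 5 called genes. With 1 library left out in turn, between 0 and 193 genes, between 0 and 1 members after adjustment and between 1 and 3 members before it were called. The counts of genes were 193 without FLOX+GCI replicate 1, 127 without FLOX+GCI replicate 2, and 0 without FBN-ARO-KO+GCI replicate 1 or 2. Each of these fits takes its spread from the group with 2 libraries and assumes that the lone library varies alike, so they are not comparable tests of stability. Over the 12 alternatives, 101 of 107 values of the members kept their direction. The others were Penk, Tac2, Crh and Scg2 without FLOX+GCI replicate 2, Crh without FBN-ARO-KO+GCI replicate 1 and Scg2 without FBN-ARO-KO+GCI replicate 2. With 1 library left out, Penk lay between -0.40 and 0.12, Tac2 between -0.67 and 0.014, Crh between -0.17 and 0.32 and Scg2 between -0.16 and 0.11. Of 202 values for 17 other named genes 7 turned: Ntsr2 (0.11 in both) and Cck (0.061 and 0.060) in the GC-corrected fits without and with the block, Chgb with library totals only (-0.0099) and without FBN-ARO-KO+GCI replicate 2, and Gal without FLOX+GCI replicate 2. With 1 library left out, Chgb lay between -0.027 and 0.077 and Gal between -3.93 and 1.52. The causes were not tested. Crh had no value with a mean of at least 50 counts. At 2 libraries a group, an interval that includes 0 does not show that a difference is absent.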

Other observations

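Gal and Trh, which encode the precursors of galanin and thyrotropin-releasing hormone, were picked out after their values were seen. Gal was at 3 and 134 counts in the FLOX+GCI libraries against 13 and 9 in the FBN-ARO-KO+GCI libraries, and Trh was at 3 and 118 counts against 2 and 10. For both, FLOX+GCI replicate 2 was far above the other 3 libraries, which lay at or below 13 counts, and FLOX+GCI replicate 1 was at 3 counts. Among the members, the same library was the highest for Penk, Tac2, Adcyap1 and Scg2, by at most 1.61-fold over FLOX+GCI replicate 1. The log2 fold change of Gal was -2.96 (standard error 1.24, adjusted p = 0.293 in edgeR, and -2.78 in the GC-corrected fit), and Trh did not pass the filter on low counts.

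Ucn and Tac4 had 0 counts in every library, and Calcb was at 0 and 0 counts in the FLOX+GCI libraries against 3 and 7 in the FBN-ARO-KO+GCI libraries, where 3 counts is the limit that a count of 0 allows in a library.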
